A study of Mus musculus with 8 samples.

Results

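The T cell receptor of a conventional T cell is a pair of chains, alpha and beta, and each chain carries 1 variable gene segment. The segments measured here are those of the mouse alpha locus (Trav, chromosome 14) and beta locus (Trbv, chromosome 6). They were all rows of the 2 deposited expression tables whose Ensembl identifier mapped to a symbol starting with Trav or Trbv and a digit, after segments annotated as pseudogenes were left out (20 Trav and 13 Trbv). This gave 130 segments, 108 Trav and 22 Trbv, of 47069 genes present in both tables. The rule used no expression value.

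RNA came from regulatory T cells (Tregs) sorted from lymph nodes of C57BL/6 mice of 6 to 8 weeks that carried the 35EbiT and Blimp1-GFP KI reporter alleles. Both populations came from this same cross, and they differ in which reporter the sorted CD4+CD25+ cells showed. Ebi3-Tregs were Thy1.1+Blimp1-, and Blimp1-Tregs were Thy1.1-Blimp1+. The protocol in the labels adds low CD62L to both gates, so these are not all Tregs of the node. Ebi3 encodes a subunit of interleukin-35 and interleukin-27, and Blimp1 is the transcription factor that marks effector Tregs. Each population has 4 libraries, of which replicates 1 and 2 are in one table and replicates 3 and 4 in the other. Values are FPKM, fragments per length of gene and depth of library, as the authors deposited them. Nothing says whether the libraries came from separate mice, so the spread may be technical in part.

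During thymic development the RAG enzymes join 1 variable segment to a joining segment, with a diversity segment between them in the beta chain. The joined exon is then spliced to the constant gene (Trac, or Trbc1 or Trbc2). A mature T cell keeps its joined segments and passes them to its progeny, so the mix of segments in sorted cells is a coarse readout of their receptor repertoire. In C57BL/6 mice a large stretch of the Trav locus is duplicated, and segments of the extra copies carry a d or an n in their names.

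The 3′ end of a segment encodes the conserved cysteine that opens the third complementarity-determining region (CDR3), the loop that touches the antigenic peptide. The last 60 bases of the segments on which the results turn are shown here from GENCODE M21 transcripts (GRCm38), 5′ to 3′, with the cysteine codon in capitals. The codon was searched on the sense strand as TAC or TAT, then any 3 bases, then TGT. This pattern was found in 115 of 130 segments (88.5%). It does not cover TGC, which also encodes cysteine, so a segment without a match does not thereby lack the cysteine. These 5 are the Trbv segments with the largest use or the clearest separation between the populations:
Trbv3: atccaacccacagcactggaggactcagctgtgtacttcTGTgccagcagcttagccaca
Trbv13-2: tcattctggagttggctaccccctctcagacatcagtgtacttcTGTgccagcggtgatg
Trbv13-1: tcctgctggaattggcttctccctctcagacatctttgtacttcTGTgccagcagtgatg
Trbv16: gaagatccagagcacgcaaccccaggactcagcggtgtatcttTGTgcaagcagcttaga
Trbv31: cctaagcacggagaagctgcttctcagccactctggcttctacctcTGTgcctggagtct

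The next set holds the 3 Trav segments that passed the expression test, with the closest copies of Trav6-3 and Trav13d-1, and the identical ends of the pair used by invariant natural killer T (NKT) cells:
Trav17: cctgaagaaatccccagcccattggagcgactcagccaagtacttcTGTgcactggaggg
Trav6-3: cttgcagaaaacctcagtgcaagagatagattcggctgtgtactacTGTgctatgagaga
Trav6d-3: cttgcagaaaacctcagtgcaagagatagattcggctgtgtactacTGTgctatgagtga
Trav13d-1: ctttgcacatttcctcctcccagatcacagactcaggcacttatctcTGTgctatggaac
Trav13n-1: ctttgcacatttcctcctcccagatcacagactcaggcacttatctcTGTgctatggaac
Trav11: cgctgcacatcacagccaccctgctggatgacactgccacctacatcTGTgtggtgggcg
Trav11d: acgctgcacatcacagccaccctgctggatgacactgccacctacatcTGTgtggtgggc
Over the 60 bases shown, Trav6-3 and Trav6d-3 differed at 1 base and Trav13d-1 and Trav13n-1 at 0. The end of Trav11 is that of Trav11d moved by 1 base, because the annotated Trav11 transcript is 343 bases long and that of Trav11d 342.

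How much of its sequence a segment shares with its copies bears on every Trav value. Each segment's transcript was broken into overlapping stretches of 50 bases, and those found in no other annotated transcript were counted as its own. Of the 108 Trav segments, 36 had no stretch of their own. None of these 36 exceeded 3 reads in any library, and the highest mean over the 8 libraries was 0.0658 FPKM. By contrast, all 18 Trav segments with above 20% to 50% of stretches their own, and all 33 with above 50% and under 100%, reached at least 1.16 FPKM on average. Across the 108 Trav segments, the share of own stretches and the mean FPKM had a Spearman rho of 0.72. This is a description across segments, which share libraries and are not independent. The handling of reads that match several places is not given in the sources used here, so for a segment with no sequence of its own a low level and uncounted shared reads cannot be told apart. Own sequence did not ensure a high level either. Trav18 and Trav23, with all stretches their own, had means of 0.113 and 0.228 FPKM.

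**Figure D1:**
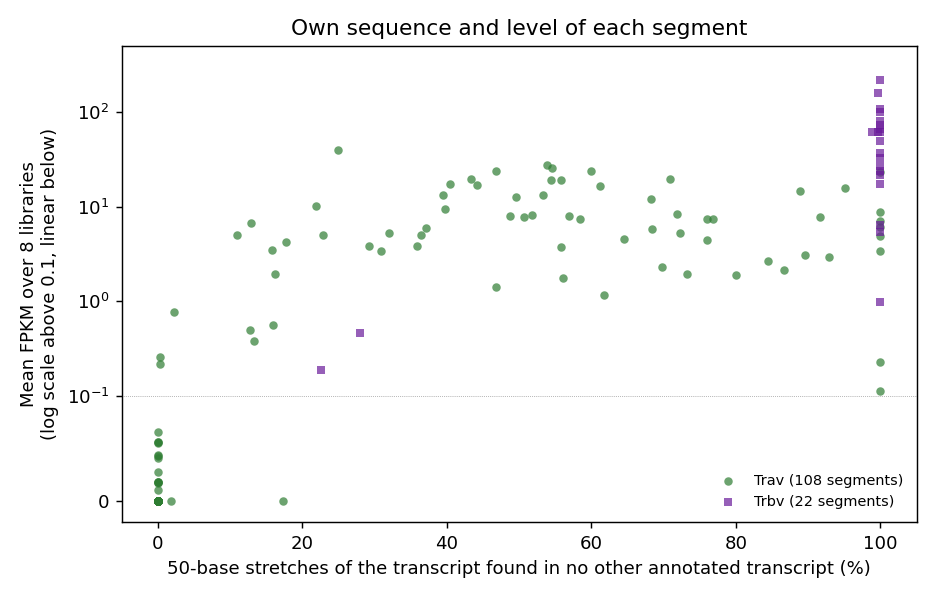
Each point is 1 of the 130 segments, with the share of its 50-base stretches found in no other annotated transcript on the x axis (%) and its mean FPKM over the 8 libraries on the y axis (log scale above 0.1, linear below). The 36 Trav segments at 0% lie at or under 0.0658 FPKM, and Trbv3, the highest point, lies at 100%.

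The Trbv locus holds few copies, and 17 of its 22 segments had all stretches their own. Trbv4 and Trbv5 had 75.1% and 79.3% of their exon bases under a non-coding gene on the same strand, 5830405F06Rik, and means of 0.466 and 0.191 FPKM. Their values are uncertain for that reason. Trav13d-3 and Trav13n-3 lie wholly under antisense genes.

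Segments that reached 1 FPKM in 4 or more libraries were tested, which left 81 segments (62 Trav and 19 Trbv). No segment passed through 1 population alone. Of the 49 left out, 46 were Trav and 3 Trbv (Trbv4, Trbv5 and Trbv21), and 25, all Trav, were at 0 in every library. The deposited values corresponded to depths of 13329861 to 31275295 fragments per library. Between 2118 and 9023 reads fell on Trav segments and between 4464 and 17595 on Trbv segments, in each case at most 0.0902% of the depth. Confidence intervals from such reads cover counting error only, since amplified reads are not independent molecules.

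Use of a segment is given here as its share of the summed FPKM of its locus in a library. Trbv3 held the largest mean share of the beta locus and differed most between the populations. Its shares were 10.8%, 9.91%, 9.45% and 7.17% in Ebi3-Treg 1 to 4, and 21.4%, 35.9%, 13.5% and 21.6% in Blimp1-Treg 1 to 4. All 4 Blimp1-Treg libraries lay above all 4 Ebi3-Treg libraries, and Blimp1-Treg 2 stood highest. The means were 9.33% ± 1.54 (SD, n = 4) in Ebi3-Tregs and 23.1% ± 9.32 (SD, n = 4) in Blimp1-Tregs. In reads, Trbv3 had 701 of 8757 Trbv reads in Ebi3-Treg 4 (8.01%, 95% Wilson interval 7.45% to 8.59%) and 6861 of 17595 in Blimp1-Treg 2 (39.0%, 38.3% to 39.7%). The closest libraries were Ebi3-Treg 1, with 1318 of 10677 (12.3%, 11.7% to 13%), and Blimp1-Treg 3, with 891 of 6018 (14.8%, 13.9% to 15.7%), and their intervals did not overlap.

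The same segment in FPKM read 113, 179, 96.0 and 69.7 in Ebi3-Treg 1 to 4. In Blimp1-Treg 1 to 4 it read 267, 773, 102 and 160. These values overlap, since Blimp1-Treg 3 lay below 2 Ebi3-Treg libraries. The FPKM difference of Trbv3 did not pass the test (log2 difference -1.15, SE 0.39, limma adjusted p = 0.151). With the replicate number as a block it did (adjusted p = 0.0276). This block pairs same-numbered libraries, a pairing read from these data and not from the labels. As in any bulk sample, more cells using a segment and more receptor RNA per cell cannot be told apart.

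Trbv3 was tested as a share in the same model, after every gene had been rescaled to equal Trbv sums. The log2 difference of the share was -1.23 (SE 0.26), with an unadjusted p of 0.00104 and an adjusted p of 0.0618 over all 12273 genes tested, which does not pass 0.05. In this fit 1.41% of all genes passed and 0 of the 19 Trbv segments did. An unadjusted p under 0.05 was reached by 5 of these segments and by 1127 of all genes. With the replicate block, whose pairing the labels do not give, the adjusted p of Trbv3 was 1.83e-06. With the block 10.2% of all genes passed and 3 Trbv segments did. Leaving out each library in turn gave adjusted p for Trbv3 between 0.0514 and 0.271.

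**Figure D2:**
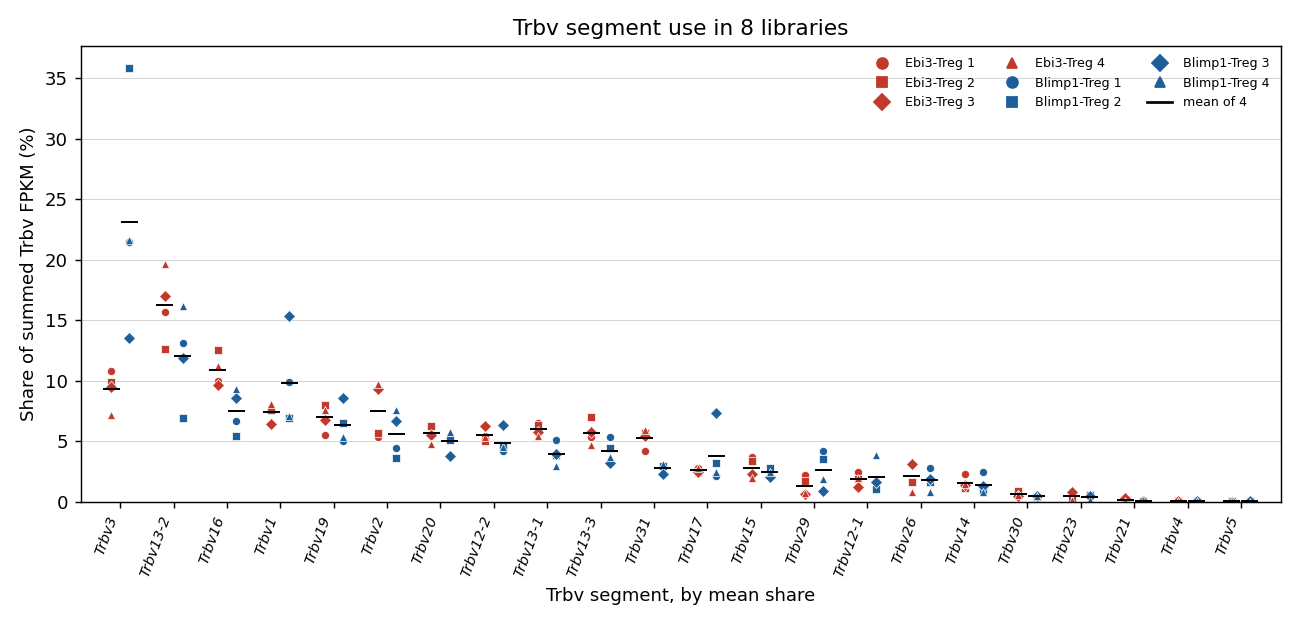
Share of the summed Trbv FPKM (%, y axis) of the 22 Trbv segments (x axis, ordered by mean share) in each library. Red symbols are the 4 Ebi3-Treg and blue symbols the 4 Blimp1-Treg libraries, each replicate number has its own symbol, and bars are means of 4. Trbv3 stands between 13.5% and 35.9% in Blimp1-Tregs and between 7.17% and 10.8% in Ebi3-Tregs.

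Trbv16, Trbv31 and Trbv13-1 had shares that were higher in every Ebi3-Treg library than in any Blimp1-Treg library. Trbv31 is the only segment of the 130 that lies on the strand opposite to its constant gene, and it joins by inversion. Its shares were 4.15%, 5.66%, 5.43% and 5.92% in Ebi3-Treg 1 to 4 and 2.87%, 2.91%, 2.30% and 3.10% in Blimp1-Treg 1 to 4. The populations did not overlap, and their means were 5.29% ± 0.787 and 2.79% ± 0.346 (SD, n = 4 each). The log2 difference of its share was 0.90 (SE 0.24, limma adjusted p = 0.143), and 0.00345 with the replicate block.

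Trbv16 had shares of 10.0%, 12.5%, 9.63% and 11.2% in Ebi3-Tregs and 6.65%, 5.38%, 8.57% and 9.34% in Blimp1-Tregs. Trbv13-1 had 6.50%, 6.37%, 5.76% and 5.41% in Ebi3-Tregs and 5.05%, 3.83%, 3.90% and 2.90% in Blimp1-Tregs. Neither difference passed as a share, with limma adjusted p of 0.486 for Trbv16 and 0.336 for Trbv13-1. In all, 4 of the 19 tested Trbv segments had shares that did not overlap, 3 higher and 1 lower in Ebi3-Tregs. On the same scale 4.46% of all tested genes did not overlap.

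Shares of a locus add up to a whole, so 1 high segment lowers the rest. With Trbv3 taken out of the sum, a setting added after the data were seen, Trbv31 still did not overlap (4.65% to 6.37% in Ebi3-Tregs, 2.66% to 4.55% in Blimp1-Tregs). Trbv16 then did, at 10.6% to 13.9% against 8.40% to 11.9%. So did Trbv13-1, at 5.83% to 7.29% against 3.70% to 6.44%. Trbv1 took on a separation it did not have before, at 7.12% to 8.71% in Ebi3-Tregs against 9.0% to 17.7% in Blimp1-Tregs.

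Trbv13-2, the most used segment in all 4 Ebi3-Treg libraries, held 15.6%, 12.6%, 17.0% and 19.7% of the locus there. In Blimp1-Treg 1 to 4 it held 13.1%, 6.89%, 11.9% and 16.2%. These shares overlap, but its FPKM did not, at 164, 229, 173 and 191 against 163, 148, 89.5 and 120. The FPKM difference did not pass the test (log2 0.56, SE 0.18, limma adjusted p = 0.126), but did with the replicate block (adjusted p = 0.0346). The 3 members of its family, Trbv13-1, Trbv13-2 and Trbv13-3, together made up 26% to 29.8% of the locus in Ebi3-Tregs and 15.1% to 23.5% in Blimp1-Tregs. That whole includes Trbv3, so the high Trbv3 of Blimp1-Tregs lowers the family there. With Trbv3 taken out of the sum, each of the 3 segments overlapped between the populations.

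The other leading Trbv segments overlapped between the populations. Trbv1 held 6.45% to 8.09% in Ebi3-Tregs and 6.94% to 15.3% in Blimp1-Tregs, where it led in Blimp1-Treg 3. Trbv19 held 5.52% to 8.02% against 4.97% to 8.59%. Trbv2 held 5.33% to 9.72% against 3.59% to 7.59%. The 6 segments with the highest mean share (Trbv3, Trbv13-2, Trbv16, Trbv1, Trbv19 and Trbv2) held 61.3% of the locus between them.

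Use of the alpha locus was spread over more segments, 108 against 22, so the size of single shares does not compare the evenness of the loci. The highest mean share of a Trav segment was 6.67%, that of Trav7-4, and the 6 highest held 27.6% together. Trav7-4 held 6.23%, 6.07%, 7.08% and 5.73% in Ebi3-Treg 1 to 4. In Blimp1-Treg 1 to 4 it held 5.01%, 6.41%, 4.43% and 12.4%, so its value in Blimp1-Treg 4 stood above the other 7 libraries. Trav13-1 was high in the same library, at 8.91%, against 2.34% to 5.60% in the other 7.

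Trav4-4-dv10, a segment that can also join to the delta chain, stood high in Blimp1-Treg 3. It held 2.95%, 2.77%, 2.63% and 2.99% in Ebi3-Tregs and 2.96%, 2.41%, 11.4% and 4.73% in Blimp1-Tregs. Its FPKM were 12.7, 17.8, 10.8 and 10.3 in Ebi3-Tregs and 22.8, 25.7, 62.9 and 26.8 in Blimp1-Tregs. These FPKM did not overlap, but the difference did not pass the test (log2 -1.26, SE 0.34, limma adjusted p = 0.0726). It did with the replicate block (adjusted p = 0.0231).

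Trav14n-3 held 5.38%, 5.20%, 6.42% and 6.45% in Ebi3-Tregs and 5.63%, 3.82%, 3.33% and 2.66% in Blimp1-Tregs. Only Blimp1-Treg 1 lay within the Ebi3-Treg range. Trav3-3 was nearly even, at 4.02% ± 0.161 and 3.96% ± 0.914 (SD, n = 4 each). Trav9n-4 was the 1 tested Trav segment of 62 whose shares did not overlap, at 0.763% to 1.32% in Ebi3-Tregs and 0.678% to 0.728% in Blimp1-Tregs, where 22.8% of all genes on the same scale did not overlap.

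**Figure D3:**
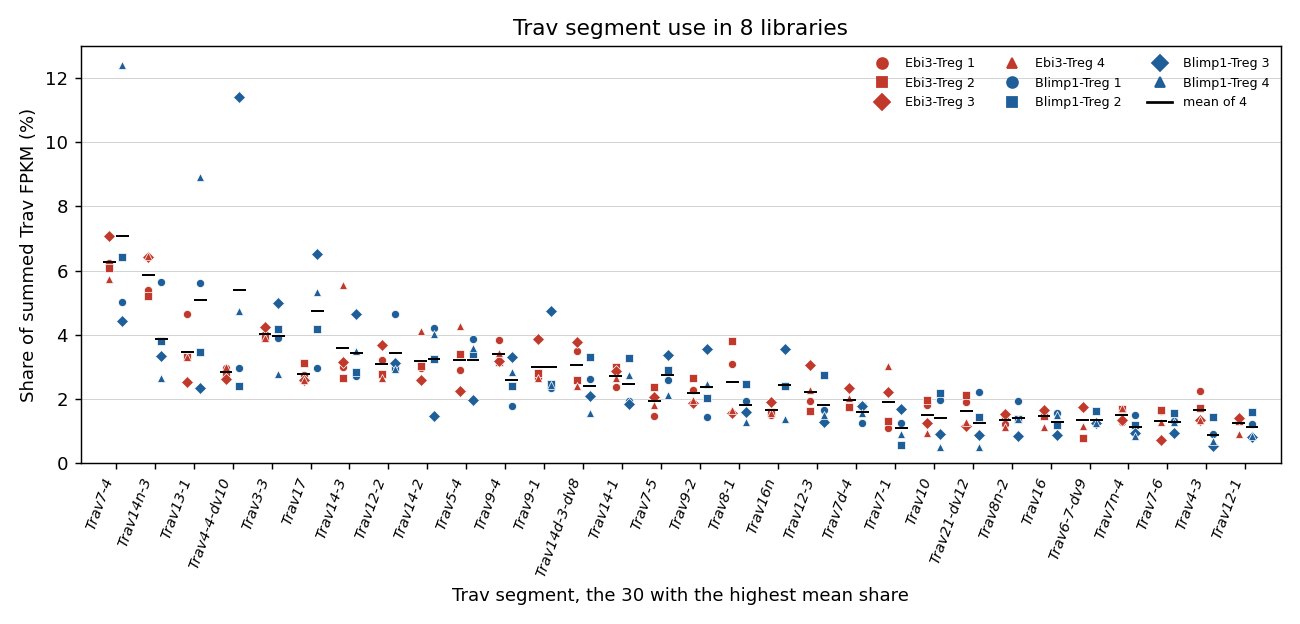
Share of the summed Trav FPKM (%, y axis) of the 30 Trav segments with the highest mean share (x axis) in each library, with symbols as in the plot of Trbv shares. The Ebi3-Treg libraries lie close together, while Blimp1-Treg 3 reaches 11.4% for Trav4-4-dv10 and Blimp1-Treg 4 reaches 12.4% for Trav7-4.

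By position, the 36 Trav segments nearest to the constant gene Trac held 67.0% ± 2.06 of the locus in Ebi3-Tregs and 70.2% ± 4.55 in Blimp1-Tregs (SD, n = 4). The 36 farthest held 12.3% ± 1.53 and 10.4% ± 1.36. The nearest group had 2 segments with no sequence of their own and the farthest group 17, so position and sequence sharing cannot be told apart here. Segments with a d in their names (34) held 10.6% ± 0.952 in Ebi3-Tregs and 10.6% ± 2.64 in Blimp1-Tregs. Those with an n (28) held 14.7% ± 0.227 and 12.4% ± 2.61. By family, Trav14 led in Ebi3-Tregs with 16.5% to 21.2%, against 13.4% to 17.1% in Blimp1-Tregs, and Trav7 held 14.6% to 17.3% against 14.1% to 19.6%. No Trav family with a tested member had shares that did not overlap.

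Tested as FPKM over all genes, 3 of the 62 Trav segments fell in Ebi3-Tregs relative to Blimp1-Tregs and 0 rose. None of the 19 Trbv segments passed. An unadjusted p under 0.05 in limma was reached by 6 of them and by 15 of the 62 Trav segments. It was also reached by 2282 of the 12273 genes tested. Of all genes tested 6.29% passed, 2.93% lower and 3.37% higher in Ebi3-Tregs, so 3 of 62 is near the background. The segments were Trav17, Trav6-3 and Trav13d-1, which belong to 3 families. By overlap alone, 5 tested Trav segments (Trav17, Trav6-3, Trav13d-1, Trav4-4-dv10 and Trav14-3) were lower in every Ebi3-Treg library and 0 were higher, and 1 Trbv segment (Trbv13-2) was higher and 0 were lower. Of all genes 11.1% did not overlap in FPKM, 4.5% lower and 6.63% higher.

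Trav17 read 11.8, 20.1, 10.6 and 8.92 FPKM in Ebi3-Treg 1 to 4 and 22.8, 44.5, 35.8 and 30.2 in Blimp1-Treg 1 to 4. The populations did not overlap, and the log2 difference was -1.33 (SE 0.27, limma adjusted p = 0.0287). All its stretches are its own, so no copy shares its reads. Its share of the locus overlapped, at 2.58% to 3.12% against 2.96% to 6.51%. The call was lost without any 1 of 6 of the 8 libraries (Ebi3-Treg 1, 3 or 4, or Blimp1-Treg 2, 3 or 4), with adjusted p of 0.0581 to 0.107.

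Trav6-3 read 2.59, 2.28, 5.40 and 4.31 FPKM in Ebi3-Tregs and 8.11, 8.86, 9.15 and 12.7 in Blimp1-Tregs. It did not overlap either, with a log2 difference of -1.24 (SE 0.19, limma adjusted p = 0.00793), and the call held without each library in turn (adjusted p at most 0.0439). Only 12.8% of its stretches are its own and 87.2% occur in Trav6d-3, so the values of this pair are uncertain. Trav6d-3 did not reach the filter and read 0.138 to 0.238 FPKM in Ebi3-Tregs and 0.622 to 2.06 in Blimp1-Tregs. Those values did not overlap, but they rest on 1 to 2 reads per Ebi3-Treg library and 3 to 13 per Blimp1-Treg library.

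Trav13d-1 read 3.06, 1.63, 1.70 and 0.343 FPKM in Ebi3-Tregs and 4.52, 6.08, 6.44 and 4.12 in Blimp1-Tregs. Its log2 difference was -1.32 (SE 0.31, limma adjusted p = 0.0486). This rests on 3 to 31 reads per Ebi3-Treg library and 24 to 56 per Blimp1-Treg library. The call was lost without any library but Ebi3-Treg 1 (adjusted p up to 0.152), and only 15.9% of the stretches of Trav13d-1 are its own. Its closest copy, Trav13n-1, overlapped at 1.5 to 4.49 against 2.04 to 9.76 FPKM.

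The log2 difference was negative for 56 of the 62 Trav segments, with a median of -0.43, and positive for 15 of the 19 Trbv segments, with a median of 0.26. The median over all genes tested was 0.07. Both medians differed between the tables. In replicates 1 and 2 alone that of Trav was -0.65 (1 of 62 positive) and that of Trbv 0.03 (10 of 19 positive), against -0.24 (19 of 62) and 0.53 (14 of 19) in replicates 3 and 4. Leaving out each library in turn moved the Trbv median between 0.17 (without Blimp1-Treg 1) and 0.46 (without Ebi3-Treg 1 or Blimp1-Treg 2), and the Trav median between -0.56 and -0.29. Scaling to equal Trav sums balances the Trav segments by construction (median 0.10), so that value says nothing about use. These medians describe segments that share a locus and its total, and carry no test. Among the Trav segments with a positive value were Trav2 (0.44, limma adjusted p = 0.721) and Trav4-3 (0.23, adjusted p = 0.762).

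**Figure D4:**
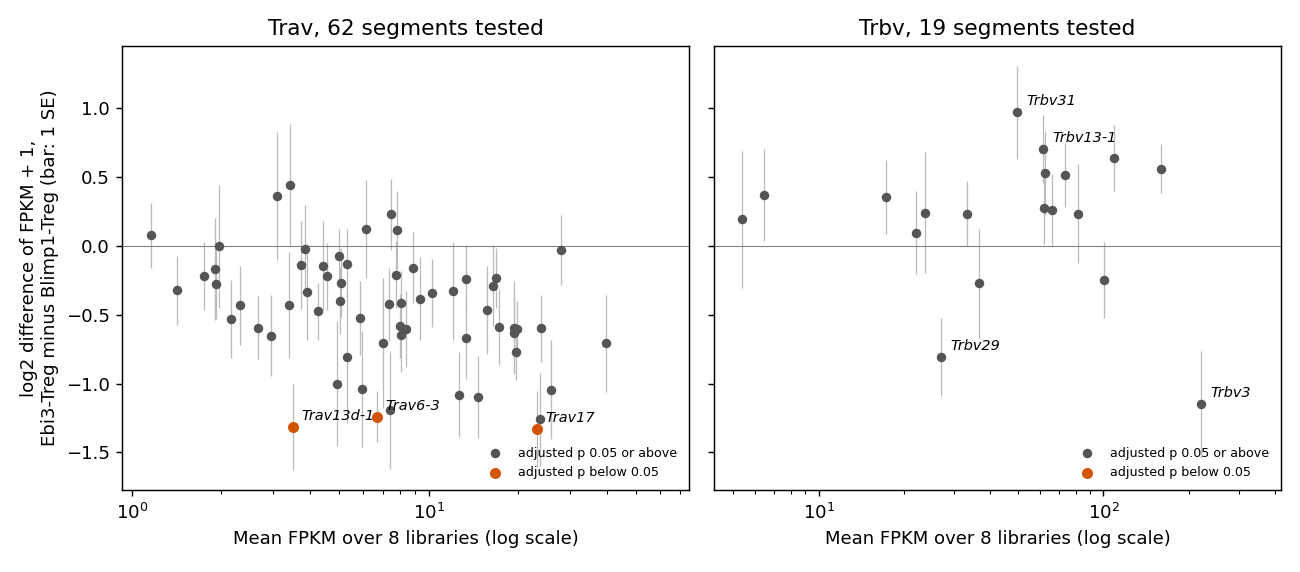
Log2 difference of FPKM + 1, Ebi3-Treg minus Blimp1-Treg (y axis, bar 1 SE), against mean FPKM over the 8 libraries (x axis, log scale), for the 62 Trav and 19 Trbv segments tested. Orange points passed at adjusted p under 0.05, and they are Trav17, Trav6-3 and Trav13d-1. Trbv3 is the lowest of the Trbv segments.

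With the replicate number as a block, 14 Trav segments passed, all lower in Ebi3-Tregs. Then 5 Trbv segments were higher and 2 lower, while 22.4% of all genes passed (8.94% lower, 13.5% higher). The 5 were Trbv13-2, Trbv16, Trbv2, Trbv13-1 and Trbv31, and the 2 were Trbv3 and Trbv29. Trbv29 read 6.59 to 30.04 FPKM in Ebi3-Tregs and 6.34 to 76.4 in Blimp1-Tregs, with both libraries of replicates 1 and 2 above those of replicates 3 and 4 in each population.

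Fitted on replicates 3 and 4 alone, 3 Trav segments were lower in Ebi3-Tregs (Trav17, Trav4-4-dv10 and Trav9-2) and 6 Trbv segments were higher (Trbv13-1, Trbv13-2, Trbv13-3, Trbv16, Trbv2 and Trbv31), where 11% of all genes passed (5.47% lower, 5.51% higher). Leaving out any of those 4 libraries brought this down to 1 Trav and 1 to 2 Trbv segments. Fitted on replicates 1 and 2 alone, 0 segments passed in limma, as did 0 of all genes. In that fit 8 of 62 Trav and 2 of 19 Trbv segments had an unadjusted p under 0.05, as did 707 of all 12273 genes. With the replicate block, 35 Trav and 5 Trbv segments passed in replicates 1 and 2, where 23.3% of all genes did. The block leaves little in 4 libraries to estimate error from, so these calls lean on variance shared across genes. In replicates 1 and 2 the log2 difference of Trbv3 was -1.67, against -0.63 in replicates 3 and 4. That of Trbv31 was 0.49 against 1.46. The difference between tables itself passed for 0 segments in limma's interaction fit. There 6 of 62 Trav and 0 of 19 Trbv segments had an unadjusted p under 0.05, against 203 of all 12273 genes.

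As shares of the alpha locus, 1 Trav segment passed. Trav4-3 held 2.24%, 1.72%, 1.33% and 1.35% in Ebi3-Tregs and 0.900%, 1.45%, 0.529% and 0.673% in Blimp1-Tregs. Blimp1-Treg 2 lay inside the Ebi3-Treg range. The log2 difference of the share was 0.84 (SE 0.23, unadjusted p 0.0064, limma adjusted p = 0.0273). In this fit every gene was divided by the Trav sum, which itself differed, and 35.2% of all genes passed, so the adjusted p is lenient and nothing is read from the count. The call was lost without any 1 of 5 libraries (Ebi3-Treg 3 or 4, or Blimp1-Treg 1, 3 or 4), with adjusted p of 0.0628 to 0.0927. With the replicate block 13 Trav segments passed, 7 higher and 6 lower, where 76.0% of all genes did.

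The Trav segments summed to 429, 644, 411 and 344 FPKM in Ebi3-Treg 1 to 4 and to 769, 1067, 550 and 565 in Blimp1-Treg 1 to 4. These sums overlap only through Ebi3-Treg 2, which lay above Blimp1-Treg 3 and 4. Trac, the alpha constant gene, did not overlap, at 1966, 2888, 2254 and 2397 FPKM against 3340, 4106, 3457 and 3579. Its log2 difference of -0.62 (SE 0.17) did not pass (limma adjusted p = 0.0721), but did with the replicate block (adjusted p = 0.00608). Relative to Trac, the Trav sum was 19.2% ± 3.71 in Ebi3-Tregs and 20.2% ± 5.14 in Blimp1-Tregs (SD, n = 4).

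The Trbv segments summed to 1050, 1809, 1016 and 973 FPKM in Ebi3-Tregs and to 1245, 2153, 755 and 738 in Blimp1-Tregs, so the populations overlapped. The beta constant genes also overlapped. Trbc1 had means of 1145 ± 328 and 983 ± 202 FPKM (SD, n = 4; limma adjusted p = 0.746) and Trbc2 of 1881 ± 483 and 1396 ± 282 (adjusted p = 0.261). Relative to both constant genes, the Trbv sum was 35.5% to 43.5% in Ebi3-Tregs and 36.1%, 38.8%, 47.6% and 74.1% in Blimp1-Tregs. The 74.1% was Blimp1-Treg 2, which read 47.5% once Trbv3 was left out of the sum. The other 7 libraries then read 28.3% to 38.8%, so Blimp1-Treg 2 was still the highest.

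The other chains of the receptor complex (Cd3d, Cd3e, Cd3g and Cd247) did not pass either, 0 of 4 in limma. An unadjusted p under 0.05 was reached by 2 of these chains and by 2282 of the 12273 genes tested. These chains carry the signal of the alpha and beta chains into the cell. Cd3e, a subunit of the CD3 dimers, did not overlap, at 733, 852, 626 and 779 FPKM in Ebi3-Tregs and 1067, 1126, 872 and 1018 in Blimp1-Tregs (log2 -0.45, SE 0.13, limma adjusted p = 0.104). Cd247, the zeta chain, had 189 ± 48.3 and 281 ± 41.3 FPKM (SD, n = 4; adjusted p = 0.151). With the replicate block, Cd3e and Cd247 passed (adjusted p of 0.00876 and 0.0136), where 22.4% of all genes did. Rag1, Rag2 and Dntt, which make and diversify the joins in immature cells, were at most 0.819 FPKM in any library.

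Diversity was described by the effective number of segments, the exponential of the Shannon entropy of the shares, which counts how many equally used segments would give the same evenness. For Trbv it was 15.2, 14.8, 14.4 and 13.2 in Ebi3-Treg 1 to 4 and 13.7, 10.9, 13.5 and 12.5 in Blimp1-Treg 1 to 4. These overlap, and Blimp1-Treg 2 was lowest. Without Trbv3 the values were 12.2 to 14.3 in Ebi3-Tregs and 12.8 to 15.0 in Blimp1-Tregs. For Trav it was 45.1 to 47.7 in Ebi3-Tregs. In Blimp1-Treg 1 and 2 it was 46.6 and 47.9, and in Blimp1-Treg 3 and 4 it was 38.2 and 36.7. The 5 most used Trav segments held 32.3% and 35.4% of the locus in those 2 libraries, against 22% to 26.1% in the other 6. Between 67 and 76 Trav segments were above 0 in a library, and 21 or 22 Trbv segments.

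Libraries were compared by the Pearson correlation of their segment shares, a description over segments that share libraries and depth. Ebi3-Treg libraries resembled one another, with r of 0.92 to 0.97 over the 108 Trav segments and 0.91 to 0.97 over the 22 Trbv segments. Blimp1-Treg libraries varied more among themselves, with r of 0.69 to 0.92 for Trav and 0.65 to 0.95 for Trbv. Between the populations r averaged 0.84 for Trav and 0.72 for Trbv. Blimp1-Treg 2 was the least like the Ebi3-Treg libraries in Trbv use, with r of 0.36 to 0.58, but its Trav use resembled theirs, with r of 0.89 to 0.95. Blimp1-Treg 3 and 4 were less like the Ebi3-Treg libraries than those were among themselves at both loci. For Blimp1-Treg 3 r was 0.72 to 0.73 for Trav and 0.77 to 0.82 for Trbv. For Blimp1-Treg 4 it was 0.78 to 0.84 and 0.77 to 0.88. In Trbv use this held for every Blimp1-Treg library, as the highest r between the populations was 0.88.

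**Figure D5:**
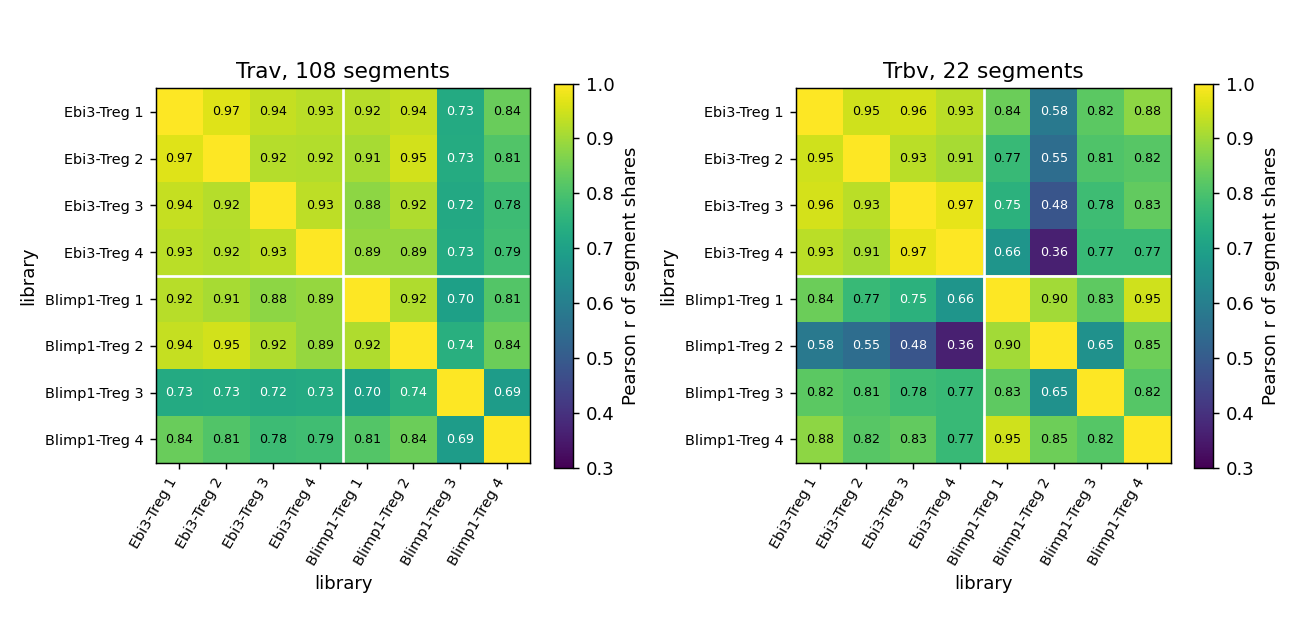
Pearson r of segment shares for every pair of the 8 libraries, over 108 Trav segments (left) and 22 Trbv segments (right), with colour and number giving r and white lines parting the populations. The block of Ebi3-Treg pairs is uniform at 0.91 or above, while Blimp1-Treg 3 stands apart in Trav and Blimp1-Treg 2 in Trbv.

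The low Trbv correlations turned on Trbv3. Without it, r between the populations averaged 0.87 ± 0.07 (SD over 16 pairs), close to 0.85 ± 0.04 among Blimp1-Treg libraries and below 0.95 ± 0.02 among Ebi3-Treg libraries. Put as the sum of the smaller share of each segment, 2 Ebi3-Treg libraries had 85.9% to 91.2% of their Trbv use in common and 2 Blimp1-Treg libraries 71.0% to 86.8%. For Trav these were 83.6% to 89.6% and 71.3% to 84.4%.

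Segments of semi-invariant T cells were described as well. Trav11 pairs with Traj18 in invariant NKT cells, and both Trav11 and its copy Trav11d had no stretch of their own. Trav11 read at most 1 read in any library and was at 0 in all 4 Ebi3-Treg libraries, where a count of 0 allows up to 0.0606% to 0.142% of Trav reads. As neither segment has sequence of its own, these values do not measure their use. Traj18, a joining segment, read 15.0 to 24.0 FPKM in Ebi3-Tregs and 16.5 to 26.8 in Blimp1-Tregs, and Zbtb16, the transcription factor of NKT cells, at most 0.827. Trav1, the segment of mucosal-associated invariant T cells, has all stretches its own. It read 2.90, 4.81, 2.57 and 0.905 FPKM in Ebi3-Tregs and 7.58, 8.35, 1.64 and 10.7 in Blimp1-Tregs, which overlap (log2 -1.0, SE 0.45, limma adjusted p = 0.296).

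Checks of the sort gave Foxp3, the defining factor of Tregs, at 182 to 375 FPKM in Ebi3-Tregs and 184 to 406 in Blimp1-Tregs, and Cd4 at 399 to 600 and 345 to 761. Trdc, the delta constant gene, was at most 1.45 FPKM, and of the 13 variable segments of the gamma and delta chains 1 reached the level for testing. Of the gamma constant genes, Tcrg-C1 read 3.33 to 9.64 FPKM in Ebi3-Tregs and 6.92, 0.832, 21.9 and 10.9 in Blimp1-Treg 1 to 4, Tcrg-C2 at most 5.81 and Tcrg-C4 at most 10.6. The list of gamma-delta T cell markers (5 genes) summed to 7.60 to 28.6 FPKM in Ebi3-Tregs and 2.24 to 25.2 in Blimp1-Tregs, and 0 of the 3 tested passed, with or without the replicate block. CD8 T cell markers (2 genes) summed to 7.76 to 39.3 FPKM and natural killer cell markers (4 genes) to 1.26 to 14.8, both highest in Ebi3-Treg 1. B cell markers (7 genes) were at summed levels of 240 FPKM in Ebi3-Treg 1 and 166 in Blimp1-Treg 1, against 31.3 to 71.6 in the other 6. Myeloid markers (5 genes) summed to 11.3 to 109 FPKM in Ebi3-Tregs and 8.48 to 36.5 in Blimp1-Tregs, and none of these 5 was at 0 in all libraries. None of the B cell or myeloid markers passed in limma without the block. With the replicate block Cd22 (log2 1.22, adjusted p = 0.000928), Cd79b (0.47, 0.0135) and Lyz2 (1.79, 0.0160) passed as higher in Ebi3-Tregs, which is 2 of the 7 B cell and 1 of the 5 myeloid markers. Of the 7 Treg markers 0 passed without the block, and Ctla4 (-0.76, adjusted p = 0.0115), Tnfrsf18 (-0.36, 0.0253) and Cd3e passed as lower with it. With the block 22.4% of all genes passed. Without both libraries numbered 1, a setting added after the data were seen, 5 Trav and 6 Trbv segments passed as FPKM, where 16.1% of all genes did. Whether other cells had a part in the segment values was not tested.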

How the data were processed

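The authors sequenced 8 libraries made with a low-input cDNA kit, per the labels' protocols, and deposited FPKM per gene in 2 tables. The submitters' processing notes list HTSeq 0.6.1, TopHat2 2.0.12 and Bowtie2 2.2.3 with the build mm9. The role of each tool and how reads were counted are not stated there. Names, exon lengths, sequences and gene order came from GENCODE M21 (GRCm38), and no coordinates are given because the builds differ.

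The 12273 genes that reached 1 FPKM in 4 or more libraries were fitted as log2(FPKM + 1) in limma 3.58.1 (R 4.3.3). The model had terms for population and table and a variance trend. Two-sided p-values were Benjamini-Hochberg adjusted over all genes, with a threshold of 0.05. Differences are on that scale, which understates low genes. For shares, every gene was rescaled to equal Trav or Trbv sums. Reads were recovered as FPKM times length and depth. They were whole within 0.01 with the reference length for 72 segments and with a fitted length for 32, where wholeness is no check. Of the other segments, 25 were 0 everywhere and 1 was not whole. The fit without the block was run on simulated data whose libraries varied independently. That run does not bear on the pairing of same-numbered libraries.

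Same-numbered libraries of the populations deviated together from their population means (r of 0.62, 0.89, 0.53 and 0.54 for numbers 1 to 4), so the numbers were taken to pair the libraries. The pairing is read from the data and not from the labels. For numbers 3 and 4 the other number of the same table correlated slightly more strongly (0.56 and 0.61), so the pairing within that table is not settled. Blocked values are printed above for many, not all, of the calls they change. With the block, Trav13-1 and Trav3-3 also passed as FPKM (limma adjusted p of 0.0295 and 0.0141), lower in Ebi3-Tregs, where 22.4% of all genes passed. As shares, Trav14n-3 (0.00754) and Trav9n-4 (0.0316) then passed as higher. Trav17 (0.00409), Trav6-3 (0.00517), Trav13d-1 (0.0107) and Trav4-4-dv10 (0.0459) passed as lower, where 76.0% of all genes passed.

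Named segments were, per locus, the 6 with the highest mean share, every segment that passed as FPKM or share, the 4 largest share differences without overlap, and Trav11, Trav11d and Trav1. Further segments were picked with their values in view. The segments and gene lists were chosen with earlier results of these data known. Alternatives were another pseudocount (0.1 or 0.01), filter, model, scaling or segment set, and leaving out libraries.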

Additional observations from a re-analysis of the deposited data

Results flagged for a closer look

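In 60 groups of 4 libraries checked for a single library far from the others, 4 stood out, and chance flags about 1 in 20. All 4 were the highest value in Ebi3-Treg 2. The Trbv sum was 1809 FPKM there, against 973 to 1050 in the other 3 Ebi3-Treg libraries. Trbc2 was 2600 FPKM against 1560 to 1684, Cd3d 449 against 181 to 220, and Cd3g 2249 against 899 to 945. In the same replicate number of the other population, Blimp1-Treg 2 also held the highest Trbv sum, Cd3d and Cd3g of its 4 libraries, at 2153, 727 and 3461 FPKM.

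Of the variable segments annotated as pseudogenes, which entered no comparison, 2 had more than 3 reads in every library. Trav8-2 had a mean of 5.17 FPKM over the 8 libraries and 7 to 99 reads, and Trbv24 had a mean of 4.91 FPKM and 9 to 67 reads.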

How the results depend on the processing

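Counts of segments that passed depended on the model. With the replicate block, 14 Trav and 7 Trbv segments passed as FPKM (3 and 0 without it), and 13 Trav and 3 Trbv segments as shares (1 and 0). Within replicates 1 and 2 the block gave 35 Trav and 5 Trbv segments (0 and 0, 23.3% of all genes). Within replicates 3 and 4 it gave 5 Trav segments (3) and 7 Trbv (6, 11.5% of all genes). Blocked calls within a table lean on variance shared across genes. Without a filter 1 Trav segment passed as FPKM (1.04% of all genes) and 0 as a share (4.06%). As shares, 3 Trav segments passed with a filter of 5 FPKM (44.1%), 0 with no table term (8.61%) and 2 with no variance trend (34.6%). Without both libraries numbered 1, added later, 5 Trav and 6 Trbv segments passed as FPKM (16.1% of all genes), and 13 and 2 as shares (65.4% and 7.43%). Without both numbered 2, also added later, 4 Trav and 3 Trbv segments passed as FPKM (16% of all genes). As shares, 11 Trav and 2 Trbv segments did (70.1% and 9.48%). Leaving out each library in turn gave 1 to 2 Trav and 0 to 6 Trbv segments as FPKM (6 without Ebi3-Treg 1, 1 without Blimp1-Treg 3; 2.78% to 6.28% of all genes) and 0 to 4 Trav segments as shares (8.76% to 44.1%). Within replicates 3 and 4 it gave 1 Trav segment each time and 1 to 2 Trbv segments (1.17% to 3.95% of all genes), where the lone library of a population is assumed to vary like the others. The difference between tables passed for 0 segments under every alternative run.

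Trav shares without overlap numbered 1 to 6 with a library left out, where 23.7% to 61.4% of all genes did not overlap, and 0 by family. For Trbv the count was 4 (4 to 5 with a library left out; 5.26% to 11.2% of all genes), and 2 without Trbv3 (Trbv31 and Trbv1, added later). By family the effective numbers were 12.7 (Trav) and 10.5 (Trbv) in Ebi3-Tregs and 12.8 and 10.04 in Blimp1-Tregs. With pseudogenes kept the Trav number in Ebi3-Tregs was 48.6. Relative to the constant genes, the log2 difference of the Trav sum went from -0.68 to -0.060 and that of the Trbv sum from 0.08 to -0.25. With a library left out these ranged from -0.86 to -0.48 and from -0.13 to 0.40. By family, mean r for Trav was 0.98 within Ebi3-Tregs, 0.89 within Blimp1-Tregs and 0.93 between them, and for Trbv within Ebi3-Tregs 0.98. By Spearman rho these Trav means were 0.96, 0.95 and 0.95, and Trbv between the populations was 0.92.

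Single log2 differences near 0 turned sign. With a library left out, the share ranged from -0.31 to 0.27 for Trav7-4, from -0.73 to 0.016 for Trav13-1 and from -0.13 to 0.20 for Trav3-3. FPKM ranged from -0.19 to 0.18 for Trav14n-3, from -0.19 to 0.078 for Trav9n-4 and from -1.03 to 0.13 for Tcrg-C1. Without both libraries numbered 1 or 2, Trav14n-3 was 0.25 and 0.052, and Trav9n-4 was 0.084 without both numbered 2. Over all single segments and genes, 750 values kept direction and side of the threshold, 66 gained it, 26 lost it and 14 turned. The cause was not tested. Depth limits the low Trav segments, whose calls rest on few reads.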
